A study of Fragaria vesca with 18 samples.

Results

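A set of 108 rows of strawberry fruit was described, labelled as long non-coding RNAs and called lncRNAs here. Each is a single-block transcript that the deposited label places antisense to exons of an annotated gene. Whether its counts came from that strand could not be told, as set out below. Each was more abundant in fruit with brown achenes than in immature fruit with green achenes. The rows were chosen from the rRNA-depleted libraries alone. A row had to carry the exonic antisense prefix (exonAS) in the deposited count table, to have 1 merged exon block in the deposited transcript assembly, to reach a median of 20 CPM (the row's count divided by the library's total in units of 1 M) over the 3 brown libraries, and to show a brown median at least 4 times the green median after adding 0.1 CPM to both. Of 61763 rows in the table, 12662 were exonic antisense and 12340 of these had 1 block. Among the 1597 single-block rows that reached 20 CPM at the brown stage, the 108 made up 6.76%, and 317 rows met the mirrored rule for falling. Because green and brown rRNA-depleted libraries chose the rows, their contrast is given below as a description with no test.

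Natural antisense transcripts are made from the DNA strand opposite a gene, so their RNA is complementary to all or some of that gene's exons. Known examples in plants act on the transcription, splicing or stability of the RNA of the gene they face, while many others have no known role. In the strawberry the fleshy part is the swollen receptacle, the true fruits are the achenes on its surface, and ripening brings softening of cell walls, sugar and aroma.

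All samples were fruit of the woodland strawberry Fragaria vesca, accession Hawaii4, a white-fruited diploid, grown without further treatment. Immature fruit had green achenes, and 2 later, mature stages had yellow or brown ones; the 3 stages are called green, yellow and brown here. At each stage 3 replicates, each pooled from several plants, were sequenced from RNA stripped of ribosomal RNA (rRNA-depleted, which keeps polyadenylated and other RNA) and 3 from RNA stripped of polyadenylated RNA (poly(A)-depleted), which gave 18 libraries in 6 groups. The labels do not say whether achenes were kept with the flesh, or whether equal replicate numbers share fruit. Gene IDs in the files are not paired with names, so the tissue could not be checked against marker genes, and no gene name or role is given to a row.

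Library totals were 47.2 to 76.9 M counts for the rRNA-depleted and 9.49 to 20.4 M for the poly(A)-depleted kind. The 3 poly(A)-depleted brown libraries differed among themselves. Intergenic lncRNA rows held 5.44%, 11.0% and 16.8% of the counts in replicates 1 to 3. Replicate 1 had the highest CPM of the group for 82 of the 108 lncRNAs and replicate 3 the lowest for 97. The numbers of calls between stages are therefore also given without single libraries.

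The 108 lncRNAs together took a small share of the green libraries and a larger share of the ripe ones. In rRNA-depleted RNA they held 0.257%, 0.225% and 0.226% of all counts in green replicates 1 to 3. The yellow replicates held 1.39%, 7.60% and 3.70%, and the brown replicates 6.47%, 6.05% and 5.16%. The green and brown groups were narrow, while the yellow libraries spread from between the green and brown levels to above the brown one. Poly(A)-depleted green libraries gave 0.257%, 0.239% and 0.235%, yellow libraries 0.528%, 1.81% and 0.674%, and brown libraries 4.02%, 2.77% and 0.753%. In both kinds of library every ripe replicate was above every green replicate. Much of the ripe share came from exonAS.XLOC_018468 and exonAS.XLOC_028814. Without them the rRNA-depleted green replicates held 0.243%, 0.220% and 0.221% and the brown replicates 3.41%, 3.16% and 2.65%. The poly(A)-depleted green replicates then held 0.254%, 0.237% and 0.233% and the brown replicates 2.73%, 1.60% and 0.352%. The rRNA-depleted rise was fixed by the rule; the poly(A)-depleted libraries took no part in it. In bulk fruit tissue, a change in the share of cells of a type and a change in RNA per cell cannot be told apart.

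**Figure D1:**
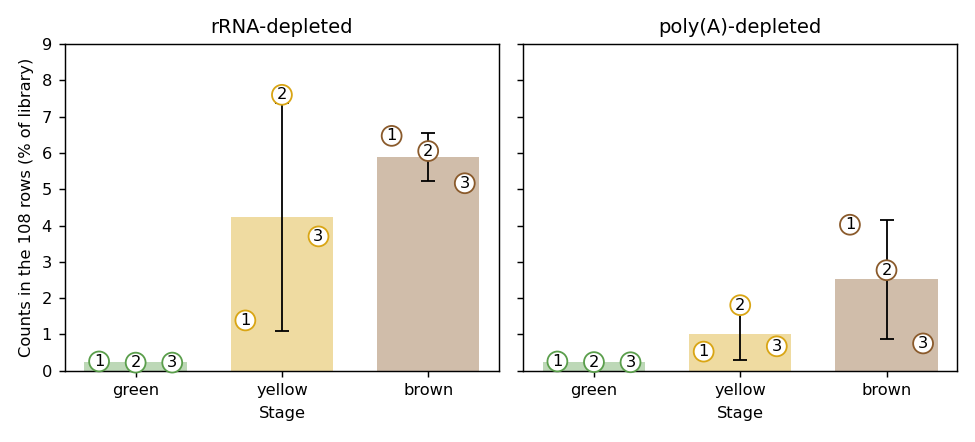
Percent of all counts that fell in the 108 lncRNA rows, by stage (x axis), for the rRNA-depleted (left) and poly(A)-depleted (right) libraries. Bars are means of 3 libraries, error bars are the SD, and the numbered circles are replicates 1 to 3; poly(A)-depleted brown replicate 3 sits at 0.753%, below the other two brown libraries at 4.02% and 2.77%.

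The lncRNAs ranged widely in level and in the size of the difference that chose them. Brown medians ran from 20.3 to 19090 CPM, with a median of 98.5 CPM, and 10 of the 108 reached 1000 CPM. Green medians ran from 0.0910 to 249.8 CPM, with a median of 9.83 CPM, and 6 lay under 1 CPM. The ratio of brown to green had a median of 9.53 and a range of 4.02 to 1427; it was at least 100 for 13 rows and under 10 for 56. All 3 brown libraries were above all 3 green libraries for 107 of the 108. The loci had a median length of 1584 bases, against 1667 bases for the 1489 other single-block rows with at least 20 CPM at brown. They lay on both strands, 53 on plus and 55 on minus, and on all 7 chromosomes, with 12, 16, 17, 12, 11, 23 and 17 on chromosomes 1 to 7. A single transcript was assembled for 105 of them.

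**Figure D2:**
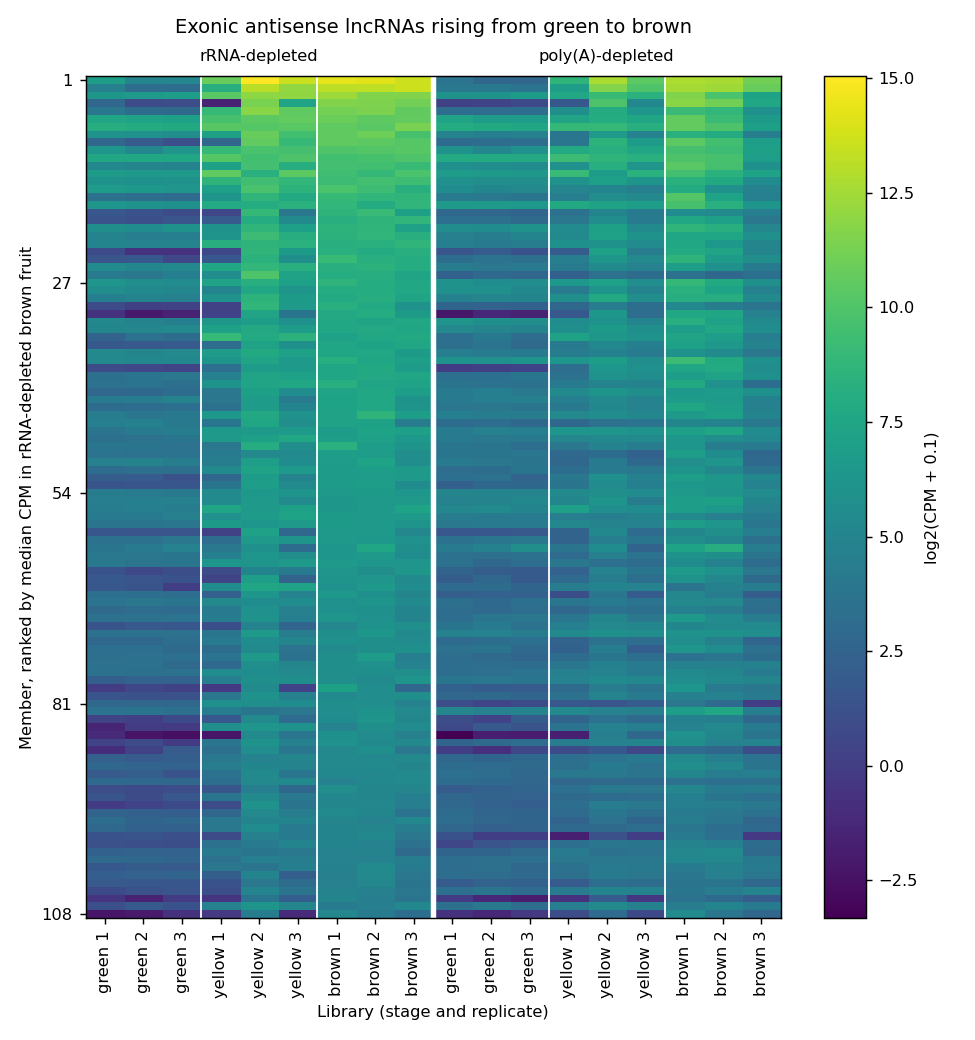
Level of each of the 108 lncRNAs (rows, ranked by median CPM in rRNA-depleted brown fruit) in each of the 18 libraries (columns), as log2(CPM + 0.1) on the colour scale. The 3 green columns are dark and alike in both kinds of library; rRNA-depleted yellow replicate 1 and poly(A)-depleted brown replicate 3 are darker than the other columns of their groups.

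The thresholds of the rule cut through a continuous range. Just inside the level threshold were exonAS.XLOC_031436 with a brown median of 20.3 CPM and exonAS.XLOC_007049 with 22.8 CPM. Just outside it were exonAS.XLOC_017926 with 19.8 CPM, whose brown-to-green ratio of 112 exceeded that of most rows kept, and exonAS.XLOC_001845 with 18.8 CPM. Just inside the fold threshold were exonAS.XLOC_027174 at 4.02 and exonAS.XLOC_000733 at 4.03, and just outside it exonAS.XLOC_019818 at 3.99 and exonAS.XLOC_001846 at 3.95.

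How far these rows measure RNA of their own was examined first, because the strand setting of the authors' counting is not given in the sources used here, and reads of an antisense row and of the gene it faces then cannot be told apart. The counts of each lncRNA were compared with those of every annotated gene row. For 7 of the 108 the ratio of the lncRNA's count to that of 1 gene row stayed within 10% of 1 in every library where the larger count reached 20; these are called copies. A further 27, called part copies, had no such partner but correlated with a gene row of the same chromosome at Pearson r of at least 0.99 over the 18 libraries on the log2(CPM + 0.1) scale. The other 74 met neither criterion. Copies made up 6.48% of the 108 and 5.04% (75 rows) of the 1489 other single-block rows at the same brown level (the difference was not tested). The correlations are descriptions over libraries that share stage, depth and scaling.

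The position of the matched gene rows, which the search for copies did not use, was close to the lncRNA locus. Gene IDs of this annotation carry a chromosome and a number that rises along it, and the place of each locus among those numbers was interpolated from other antisense rows with near-equal gene counts. All 7 copies matched a gene row on their own chromosome, at most 53.1 gene numbers away. All 27 part copies matched a gene row at most 54.7 gene numbers away. For the other 74 the best match on their own chromosome was at r from 0.907 to under 0.99. Its distance had a median of 5418 gene numbers, and 31 of the 74 lay within 500. Their own chromosome held the better match for 23 of these 74 and for all 27 part copies. With a gene row of another chromosome, 5 lncRNAs reached r of at least 0.99, 1 of them a part copy. For copies the ratio of lncRNA count to gene count was close to 1, with medians from 1 to 1.03. For part copies its median over libraries ran from 0.380 to 3.14, below 1 for 15 and above 1 for 12.

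**Figure D3:**
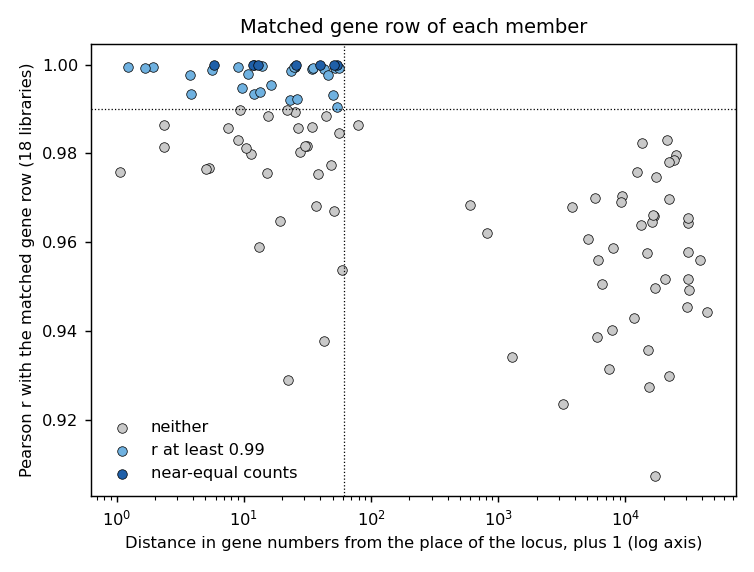
For each of the 108 lncRNAs, the Pearson r of log2(CPM + 0.1) with its matched gene row on the same chromosome over 18 libraries (y axis) against the distance in gene numbers, plus 1, between that gene and the place of the locus (x axis, log scale). The 7 copies and 27 part copies above the horizontal line at 0.99 all sit left of the vertical line at 60 gene numbers, while rows below the line spread over the whole chromosome.

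A window of 60 gene numbers on each side of a locus held 12 or 13 gene rows. Within it the best correlated gene row reached r of at least 0.99 for 34 lncRNAs, r between 0.95 and 0.99 for another 34, and r under 0.95 for 40, of which 11 were under 0.8. In the middle band the lncRNA had fewer counts than the gene row in 28 of 34 cases. For 93 of the 108 (86.1%) at least 1 gene row in the window showed a brown-to-green ratio of 4 or more in the rRNA-depleted libraries. The same held for 297 of the 1488 other single-block rows that could be placed (20.0%). Of all 28588 gene rows taken singly, 1.87% met that ratio, a share of rows that is not comparable with the shares of windows. Since the same libraries chose the lncRNAs, these shares describe the set and were not tested.

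The lncRNA with the highest level per length was exonAS.XLOC_018468, a copy of gene row FvH4_4g32700 (Fvb4:31267369-31268005, minus strand, 637 bases). In rRNA-depleted green replicates 1 to 3 it had 119, 33.4 and 35.5 CPM, in yellow 1771, 33639 and 12427 CPM, and in brown 21382, 19090 and 12450.5 CPM. The ripe libraries did not overlap the green ones, and the 3 yellow libraries differed 19.0-fold among themselves. In poly(A)-depleted RNA it had 12.4, 6.63 and 6.49 CPM at green, 407, 6776 and 1392 CPM at yellow and 6994, 6283 and 2230 CPM at brown. Again the groups of ripe and green libraries were apart. Its counts were 1 to 1.04 times those of the gene row in all 18 libraries, for example 7470 and 7234 counts in the first rRNA-depleted green library. At brown its level was 29968 CPM per kb, against 3559 CPM per kb for the next row.

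That next row was exonAS.XLOC_021188 (Fvb5:3803397-3804209, minus strand, 813 bases), which had the largest brown-to-green ratio of the set, 1427. It had 6.66, 1.77 and 1.93 CPM in rRNA-depleted green, 0.258, 2571 and 169 CPM in yellow and 3087, 2894 and 2284 CPM in brown. Yellow replicate 1 was below every green library, and yellow replicate 2 was at the brown level. The poly(A)-depleted libraries gave 1.06, 1.27 and 1.62 CPM at green, 3.25, 951 and 38.3 CPM at yellow and 3524, 2226 and 192 CPM at brown. The order of the 3 yellow replicates was the same in both kinds of library. It was a part copy of gene row FvH4_5g06470 (r = 0.999), at 0.304 to 0.515 times that row's counts.

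Among rows with neither kind of copy, exonAS.XLOC_028814 was the most abundant per length at brown, with 2622 CPM per kb (Fvb6:32537950-32541699, minus strand, 3750 bases). It had 25.8, 9.32 and 9.41 CPM in rRNA-depleted green, 308, 9212 and 4221 CPM in yellow and 9248, 9833 and 12701 CPM in brown. Its poly(A)-depleted values were 16.3, 16.8 and 12.6 CPM at green, 122, 3216 and 1004 CPM at yellow and 5922, 5396 and 1785 CPM at brown. No group of ripe libraries overlapped the green group. The best correlated gene row near it, at r = 0.988, moved with it but at a much lower level: the lncRNA had 12.3 to 65.0 times that row's counts.

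exonAS.XLOC_013842 (Fvb4:5134750-5138249, plus strand), also outside the copies, spread widely in the poly(A)-depleted brown group. It had 84.5, 95.4 and 120.3 CPM in rRNA-depleted green, 1276, 3900.3 and 4064 CPM in yellow and 5097, 2963 and 3077 CPM in brown. In poly(A)-depleted RNA it had 66.4, 70.4 and 103.5 CPM at green, 198, 519.6 and 334 CPM at yellow and 3090.4, 936 and 164 CPM at brown. The brown libraries differed among themselves by more than the yellow group differed from the green one. It had 0.169 to 1.06 times the counts of the nearby gene row that correlated best (r = 0.920).

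Of the other 6 rows with over 1000 CPM at brown, exonAS.XLOC_000324, exonAS.XLOC_021106, exonAS.XLOC_008100 and exonAS.XLOC_026428 were part copies, exonAS.XLOC_005361 was a copy and exonAS.XLOC_032367 was neither. For the 4 part copies the brown medians were 2399, 1548, 1530.5 and 1474 CPM in rRNA-depleted RNA, and the green medians 9.09, 154.6, 249.8 and 63.9 CPM. The brown-to-green ratios of the same 4 rows were 261, 10.01, 6.13 and 23.0. Outside the copies, exonAS.XLOC_032367, exonAS.XLOC_015874, exonAS.XLOC_019799 and exonAS.XLOC_010029 had brown medians of 1393, 830.04, 678 and 435 CPM and brown-to-green ratios of 367, 4.33, 7.28 and 43.5.

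**Figure D4:**
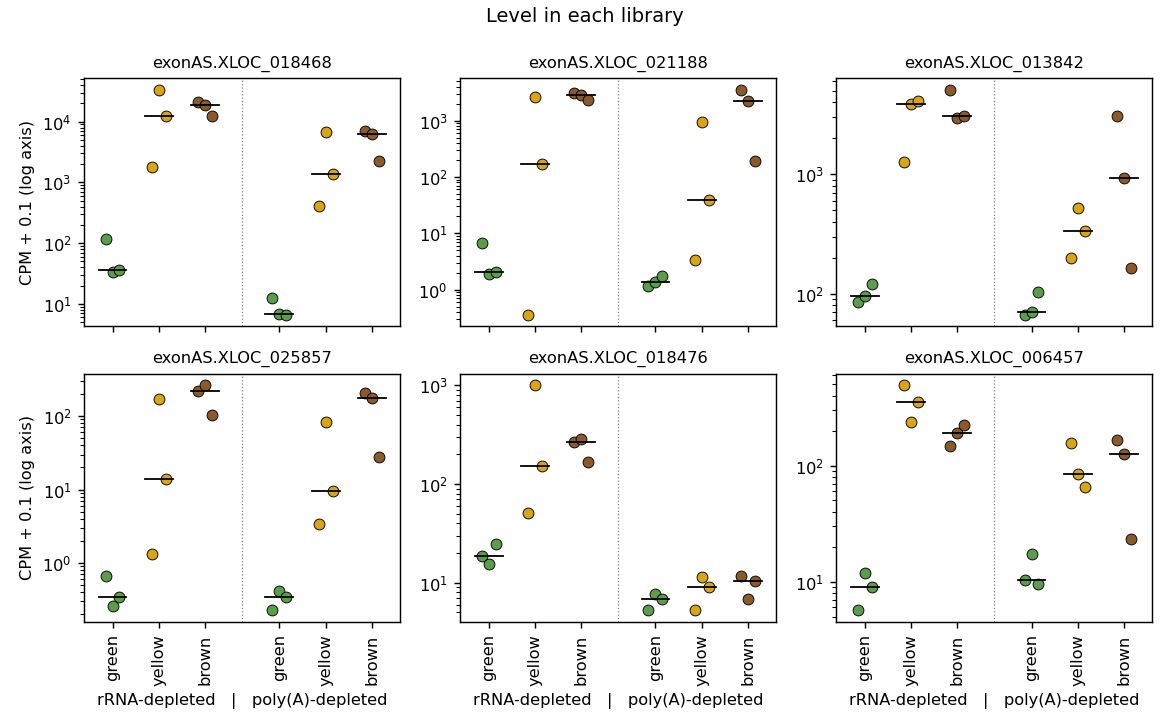
CPM + 0.1 on log axes in every library for 6 of the lncRNAs, by stage and kind of library; circles are single libraries and horizontal lines are group medians. exonAS.XLOC_018476 has brown values of 167 to 284 CPM in rRNA-depleted RNA and of 6.77 to 11.7 CPM in poly(A)-depleted RNA, while the other 5 reach at least 125 CPM in poly(A)-depleted brown replicates 1 and 2.

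The place of the yellow stage between green and brown varied both between replicates and between rows. The place of a yellow library was expressed on the log2(CPM + 0.1) scale, with 0 at the green median and 1 at the brown median of the same row. The median place over the 108 rows was 0.410 in rRNA-depleted yellow replicate 1, 1.01 in replicate 2 and 0.744 in replicate 3. The quartiles over rows were 0.0866 and 0.692 in replicate 1, 0.917 and 1.09 in replicate 2, and 0.559 and 0.904 in replicate 3. Rows past the midpoint numbered 46, 107 and 86 in that order, and 45 rows were past it in all 3 libraries. Yellow replicate 2 was the highest of its group for 84 rows and replicate 1 the lowest for 89. These values use the stages that chose the rows and were not tested.

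For 14 rows the yellow median was above the brown median. One row, exonAS.XLOC_006457, a part copy on chromosome 2, had all 3 rRNA-depleted yellow libraries above all 3 brown and all 3 green libraries. It had 5.54, 11.8 and 8.85 CPM at green, 493, 238 and 356 CPM at yellow and 146, 191 and 225 CPM at brown. In poly(A)-depleted RNA it had 10.1, 17.3 and 9.43 CPM at green, 157, 84.5 and 65.1 CPM at yellow and 165, 125 and 23.1 CPM at brown, where the yellow and brown groups overlapped.

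The poly(A)-depleted libraries, which played no part in the choice, gave a test of the difference between brown and green fruit in other libraries, though the labels do not say whether the RNA was shared. The 108 lncRNAs had higher fitted levels at brown in every case, and 30 of them rose significantly (27.8%) while none fell. Among all 48201 rows tested in the same fit, 1.28% were called higher and 4.38% lower. The 30 included the 3 rows with the highest brown level per length, exonAS.XLOC_018468, exonAS.XLOC_021188 and exonAS.XLOC_028814. Calls came mostly from the rows with the largest rRNA-depleted ratio: 11 of the 13 with a ratio of at least 100, 18 of the 39 between 10 and 100, and 1 of the 56 under 10.

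The test was edgeR's quasi-likelihood test with TMM scaling, with p-values adjusted by Benjamini-Hochberg over all rows and called at an adjusted p under 0.05; all 108 rows passed the filter on low counts. Fold changes are TMM-scaled and so differ from ratios of plain CPM. The median log2 fold change of the 108 was 2.22, with quartiles of 1.62 and 3.18, beside 0.15 over all rows tested. It was -0.19 over the 1489 other single-block rows with at least 20 CPM at brown, of which none was called higher. Those 1489 rows were themselves set apart by the rule, as rows below the 4-fold ratio in rRNA-depleted RNA. They are therefore no neutral background for this contrast. At an unadjusted p under 0.05 there were 90 of the 108, and 11685 of all 48201 rows (24.2%, in either direction). All 3 brown libraries were above all 3 green libraries on plain CPM in 73 of the 108, and in 5.34% of all rows tested. All 108 log2 fold changes stayed positive under the 3 other scalings. With library size alone the median of all rows was 0.45 and that of the 108 was 2.04, with 57 calls beside 0.734% of all rows. The number of calls rested on single libraries: it was 2 without green replicate 1, 2 without green replicate 2, 2 without green replicate 3, 46 without brown replicate 1, 6 without brown replicate 2 and 107 without brown replicate 3. Of all rows, 0.135%, 0.119% and 0.0675% were called higher without green replicates 1, 2 and 3. The shares were 13.6%, 0.163% and 7.77% without brown replicates 1, 2 and 3. Without brown replicate 1 the median log2 fold change of the 108 fell to 1.25, beside 0.34 over all rows, and 105 of the 108 were positive. Without brown replicate 3 it was 2.73, beside 0.07.

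Calls fell in all 3 classes of row. Of the 7 copies 3 were called higher, of the 27 part copies 9, and of the 74 others 18, with median log2 fold changes of 2.56, 2.45 and 2.19. Differences between these 3 classes were not tested.

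The largest rise was that of exonAS.XLOC_021188, from 1.32 ± 0.283 CPM at green to 1981 ± 1679 CPM at brown (mean ± SD, n = 3 in every group), a log2 fold change of 10.79 ± 2.52 (SE) with an edgeR adjusted p of 0.0373. exonAS.XLOC_018468 rose from 8.50 ± 3.36 to 5169 ± 2570.2 CPM, by a log2 fold change of 9.35 ± 1.80 (edgeR adjusted p = 0.0166). exonAS.XLOC_025857, which is neither copy nor part copy (Fvb6:33840400-33841986, plus strand), had 0.125, 0.319 and 0.240 CPM at green and 203, 176 and 27.9 CPM at brown. It rose by a log2 fold change of 9.34 ± 1.68 (edgeR adjusted p = 0.0119), and its rRNA-depleted brown libraries had 217, 264 and 104 CPM. In all 3 rows the brown and green libraries did not overlap, and brown replicate 3 was the lowest of its group. Of the 10 rows called among the 28 named here by rule, none was called when any 1 green library was left out and 3 were called without brown replicate 2, while all 10 were called without brown replicate 1 or 3. Of all 28 named rows, 14 were called without brown replicate 1 and 27 without brown replicate 3.

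Among abundant rows outside the copies, exonAS.XLOC_028814 rose by a log2 fold change of 8.28 ± 1.68 (edgeR adjusted p = 0.0211) and exonAS.XLOC_032367 by 6.55 ± 1.51 (edgeR adjusted p = 0.0354). exonAS.XLOC_013842 did not pass, with a log2 fold change of 4.47 ± 1.29 and an edgeR adjusted p of 0.0755, although its groups did not overlap. exonAS.XLOC_010029 likewise had 5.20 ± 1.44 (edgeR adjusted p = 0.0656), with 1131, 158 and 23.7 CPM in the 3 brown libraries. Without brown replicate 3, the lowest of the group for both, exonAS.XLOC_013842 had a log2 fold change of 5.003 (edgeR adjusted p = 0.000622) and exonAS.XLOC_010029 one of 5.73 (edgeR adjusted p = 0.00018).

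At the other end were the 3 rows with the smallest log2 fold changes in poly(A)-depleted RNA, none of them called. exonAS.XLOC_029058 had 9.38, 8.22 and 6.13 CPM at green and 11.4, 14.3 and 8.82 CPM at brown, with a log2 fold change of 0.49 ± 0.38 (edgeR adjusted p = 0.459). exonAS.XLOC_022181 had 8.69, 7.65 and 6.67 CPM against 12.3, 10.5 and 10.7 CPM, a log2 fold change of 0.50 ± 0.35 (edgeR adjusted p = 0.408), although its groups did not overlap. Without brown replicate 3 both rows were called, with log2 fold changes of 0.88 (edgeR adjusted p = 0.0259) for exonAS.XLOC_029058 and 0.81 (edgeR adjusted p = 0.0443) for exonAS.XLOC_022181. exonAS.XLOC_018476 had 5.13, 7.58 and 6.73 CPM against 11.7, 6.77 and 10.2 CPM, a log2 fold change of 0.55 ± 0.44 (edgeR adjusted p = 0.483), and was the 1 named row not called without brown replicate 3 (0.80, edgeR adjusted p = 0.127). In rRNA-depleted RNA the same row had gone from 18.6, 15.5 and 24.4 CPM at green to 265, 284 and 167 CPM at brown. Its level in ripe fruit was thus high in one kind of library and near the green level in the other. In rRNA-depleted brown replicates 1 to 3 it had 19172, 18408 and 7873 counts. The nearby gene row FvH4_4g33000 had 19367, 18712 and 8083 there. In poly(A)-depleted brown it had 239, 76 and 124 counts, and that gene row 380, 147 and 173. Whether the row's counts came from that gene was not tested.

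**Figure D5:**
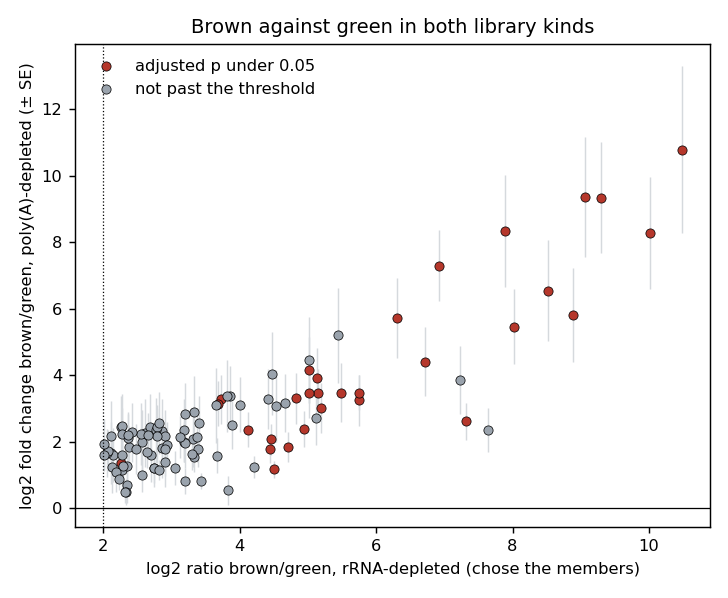
For each of the 108 lncRNAs, the log2 fold change from green to brown in poly(A)-depleted libraries with its SE (y axis, edgeR) against the log2 ratio of brown to green in rRNA-depleted libraries (x axis), which chose the rows. Red points are the 30 with an adjusted p under 0.05, the vertical line is the 4-fold threshold, and all points lie above 0.

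At the yellow stage 6 of the 108 rose from green in poly(A)-depleted RNA (5.56%) and none fell, against 2.95% of all rows called higher and 7.85% lower. In a fit of the yellow and green groups alone, 45 of the 106 rows tested rose and 6 fell, against 25.9% of all rows called higher and 29.6% lower. On plain CPM all 3 yellow libraries were above all 3 green libraries in 71 of the 108 and below them in 2, and in 54.03% and 20.3% of all rows tested. The median log2 fold change of the 108 was 0.44, with 81 of 108 above 0, beside 0.19 over all rows. It was -1.31 over the 1489 other single-block rows at the same brown level, which the rule had set apart as below its fold threshold. Of the 108, the number above 0 was 78 to 98 under other scalings. The call count was 0 without any 1 of green replicates 1, 2 and 3, without yellow replicate 2 or without yellow replicate 3. It was 9 without yellow replicate 1, beside 1.76% of all rows.

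The 6 rows, named because they were few, were exonAS.XLOC_018468, exonAS.XLOC_025857, exonAS.XLOC_028814, exonAS.XLOC_026257, exonAS.XLOC_010607 and exonAS.XLOC_008372. Yellow and brown were set against the same green libraries, so the 2 comparisons are not independent. exonAS.XLOC_026257 (Fvb6:39366723-39367297, plus strand, 575 bases) had 0.813, 1.02 and 1.20 CPM at green, 9.54, 79.0 and 60.6 CPM at yellow and 174, 243 and 50.9 CPM at brown. Its log2 fold change was 4.98 ± 0.97 at yellow (edgeR adjusted p = 0.0174) and 7.29 ± 1.07 at brown (edgeR adjusted p = 0.00457, the smallest of the set). exonAS.XLOC_010607 had log2 fold changes of 2.49 ± 0.52 at yellow (edgeR adjusted p = 0.0223) and 3.48 ± 0.53 at brown (edgeR adjusted p = 0.00568). exonAS.XLOC_008372, a part copy of gene row FvH4_3g13650 (r = 0.993), stood out for its evenness. It had 20.3, 30.8 and 28.5 CPM at yellow and 13.0, 26.3 and 21.0 CPM at brown, over 8.38, 8.92 and 5.95 CPM at green. Its log2 fold changes were 1.20 ± 0.26 at yellow (edgeR adjusted p = 0.0247) and 1.18 ± 0.26 at brown (edgeR adjusted p = 0.0293).

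Brown was not separated from yellow in poly(A)-depleted RNA. No row of the 108 was called in either direction by edgeR's quasi-likelihood test or by DESeq2, and the test called 0% of all 48201 rows, although 76 of the 108 and 4436 of all rows (9.20%) had an unadjusted p under 0.05. Fitted levels were higher at brown in 107 of the 108, with a median log2 fold change of 1.92, beside 0.01 over all rows tested. It was 1.13 over the other single-block rows at the same brown level, which the rule had set apart as below its fold threshold. Of the 108, the number above 0 was 104 to 108 under other scalings. Without brown replicate 3, 101 of the 108 were called higher and 19.0% of all rows were, and the median of the 108 was 2.43. Without brown replicate 1 it was 0.78, with 100 of the 108 above 0. In 7 of the 108 all 3 brown libraries were above all 3 yellow libraries, as in 2.20% of all rows.

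The yellow libraries, which were not used to choose the rows, also compare the kinds of library at one stage. On plain CPM the poly(A)-depleted median was 0.418 times the rRNA-depleted median for the typical row, with quartiles of 0.198 and 0.773, and it was lower for 91 of 108. At green the same ratio was 1.27 and at brown 0.552. The rRNA-depleted green and brown medians in those ratios also chose the rows, so the stages cannot be compared by them. In a fit of all 18 libraries, 104 of the 108 were lower in poly(A)-depleted yellow libraries and none was higher, against 33.3% of 52101 rows called lower and 32.7% higher. The share was no larger than that of the other single-block rows at the same brown level, of which 1473 of 1489 (98.9%) were lower.

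The size of this difference hung on the scaling. With TMM factors the median log2 fold change of the 108 was -3.83 and that of all rows 0.45. With TMM factors from annotated genes only they were -2.92 and 1.34, and with library size alone -1.46 and 2.48, when 50 of the 108 were called lower and 1 higher and 6 log2 fold changes were above 0. Relative to all rows the 108 were lower by a nearly constant amount, -4.27, -4.25 and -3.94 on the log2 scale. Over all rows, the calls split into 32.7% higher and 33.3% lower under TMM, 46.9% and 23.99% with factors from genes, and 59.9% and 9.84% with library size alone.

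The largest differences at yellow were those of exonAS.XLOC_018476, exonAS.XLOC_026428 and exonAS.XLOC_000746. exonAS.XLOC_018476 had 50.4, 1005 and 152 CPM in rRNA-depleted and 5.14, 11.4 and 8.85 CPM in poly(A)-depleted yellow libraries, a log2 fold change of -8.20 ± 1.18 (edgeR adjusted p = 2.69e-05). exonAS.XLOC_026428 had 137, 1780.2 and 696 CPM against 14.6, 97.2 and 27.7 CPM, with -6.74 ± 1.36 (edgeR adjusted p = 0.000428). exonAS.XLOC_000746 had 129, 877 and 365 CPM against 32.0, 31.6 and 23.4 CPM, with -6.42 ± 1.18 (edgeR adjusted p = 0.000195). In each the poly(A)-depleted libraries were all below the rRNA-depleted ones. exonAS.XLOC_026428 and exonAS.XLOC_000746 were part copies, of gene rows FvH4_6g04190 and FvH4_1g17910. exonAS.XLOC_018476 was neither, but it had 3324, 75537 and 10078 counts in rRNA-depleted yellow replicates 1 to 3. The nearby gene row FvH4_4g33000 had 4283, 75720 and 10760 there. In poly(A)-depleted yellow the lncRNA had 49, 129 and 84 counts, and that gene row 230, 186 and 162.

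The 4 rows that were not called were exonAS.XLOC_021188, exonAS.XLOC_029688, exonAS.XLOC_031624 and exonAS.XLOC_027174. exonAS.XLOC_027174 had 21.8, 14.0 and 15.1 CPM in rRNA-depleted and 41.6, 28.6 and 24.9 CPM in poly(A)-depleted yellow libraries, so on plain CPM its poly(A)-depleted values were the higher ones without overlap. Its TMM-scaled log2 fold change was -1.21 ± 0.62 (edgeR adjusted p = 0.0898) and turned to 0.90 with library size alone. Its direction therefore depends on the scaling.

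Some of the loci sat close to one another. Another locus on the same strand lay within 1 kb of 36 of the 108 (33.3%), beside 26.7% of the 1489 other single-block rows at the same brown level. Of the 35 such neighbours with a row in the table, 14 had a brown-to-green ratio of at least 4 in rRNA-depleted RNA, 10 of them being among the 108 themselves. In poly(A)-depleted RNA 30 of the 35 could be tested, and 28 had a log2 fold change above 0 at brown. Of these 28, 7 were called higher, and 5 of these 7 were among the 108 themselves. Among all 48201 rows tested, 27963 were above 0 and 1.28% were called higher. Neighbours that belong to the 108 are part of these counts, so the counts do not measure whether neighbours rise together.

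Within 10 kb there were 13 pairs of the 108, made of 26 different rows, 9 pairs on the same strand. The closest pair, exonAS.XLOC_005361 and exonAS.XLOC_007468 on chromosome 2, lay 65 bases apart on opposite strands, with r = 0.910 over 18 libraries. The first was a copy with a brown median of 1105 CPM in rRNA-depleted RNA, and the second had 98.6 CPM; per length these are 472 and 20.2 CPM per kb. The next closest, exonAS.XLOC_026986 and exonAS.XLOC_026987 on chromosome 6, lay 319 bases apart on the minus strand. Both rose in poly(A)-depleted RNA, by log2 fold changes of 4.158 ± 1.001 (edgeR adjusted p = 0.0417) and 2.37 ± 0.54 (edgeR adjusted p = 0.0344). The third, exonAS.XLOC_031210 and exonAS.XLOC_031211 on chromosome 7, lay 373 bases apart on the minus strand with r = 0.957, and their poly(A)-depleted log2 fold changes were 3.16 ± 0.87 (edgeR adjusted p = 0.066) and 3.48 ± 0.75 (edgeR adjusted p = 0.0272).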

How the data were processed

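The authors deposited 1 table of raw counts (whole numbers per row and library, not normalized, per the file headers) and a transcript assembly with exon positions. Tools listed without a role by the submitters' processing notes are STAR 2.5.4b, TopHat2 2.1.2 and Trim Galore 0.4.2. Neither the counting program and its strand setting nor the genome build is given in the sources used here. Coordinates are as the deposited assembly gives them, counted from 1. No gene ID (0 of 28588) matched the reference table of 24946 genes.

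CPM were computed from column totals of 9.49 to 76.9 M counts. Counts were fitted with edgeR 4.0.16 (limma 3.58.1, R 4.3.3): filterByExpr, TMM, quasi-likelihood F test, Benjamini-Hochberg over all rows, adjusted p under 0.05. Stage comparisons used the 9 poly(A)-depleted libraries, and the comparison of library kinds all 18. In simulated counts, 100% of 200 rows changed 4-fold were recovered for brown against green, with 0.99% of calls false, and 100% for the kinds at yellow, with 6.1% false. The simulation gave every row the same fixed spread and held no divergent library. It therefore checks that the code runs as intended and does not measure power or false calls in the real counts.

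Rows were named by rule: the 8 with the highest brown CPM, the 6 highest that were neither copy nor part copy, the 3 largest and 3 smallest poly(A)-depleted changes from green to brown, the 3 largest differences between kinds at yellow, the 2 just inside and outside each threshold, the 3 closest pairs, and rows highest at yellow. Rows named because a count was small were chosen after their values were seen. The 108 rows and these rules were chosen with earlier results of these data known. Alternatives were DESeq2 1.42.0, other scalings, filters and thresholds, a replicate block, a fit of 2 groups and leaving out each library.

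Deviations of libraries with equal replicate numbers correlated at 0.309, 0.104 and 0.307 between brown and yellow poly(A)-depleted libraries, and at 0.196, 0.13 and 0.245 between kinds at yellow. All exceed 0.1, so there the numbers were taken to pair the libraries, a link the labels do not state. The main fits nevertheless held no replicate term in any comparison. The pairing entered only through the replicate block among the alternatives.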

Additional observations from a re-analysis of the deposited data

How the results depend on the processing

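The rule gave 291 rows at 2-fold and 61 at 8-fold in place of 4-fold, and copies numbered 13 at a tolerance of 20%. For brown against green, calls numbered 47 with TMM from genes, 57 with library size alone and 76 with DESeq2. They numbered 15 with a replicate block and 2 at an adjusted p under 0.01. Of all rows, 1.28%, 0.734%, 8.13%, 0.786% and 0.0622% were called higher in the same order. Leaving out 1 library gave 2 to 107 calls, beside 0.0675% to 13.6% of all rows. For yellow against green the calls were 14, 24, 14, 5 and 0 in the same order, beside 7.36%, 1.04%, 10.5%, 3.15% and 0.0145% of all rows. A fit of the 2 groups alone gave 45 higher and 6 lower (25.9% and 29.6% of all rows). Leaving out 1 library gave 0 to 9 higher, beside 0.0141% to 1.76% of all rows. For brown against yellow the count stayed at 0 except without brown replicate 3 (range 0 to 101), when 19.0% of all rows were called higher. For the kinds at yellow, library size alone gave 50 lower and 1 higher, beside 9.84% and 59.9% of all rows. Leaving out 1 library gave 77 to 107 lower and 0 to 1 higher, the 1 without rRNA-depleted yellow replicate 2. Of all rows, 28.1% to 33.9% were then called lower. The numbers did not pair the green libraries with the others (correlations of 0.206, -0.123 and 0.138 with brown; 0.00085, 0.0929 and -0.0507 with yellow); in the paired comparisons the block changed no count by over 1.5 times (103 lower for the kinds). The cause of these shifts was not tested.

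Of 41 named log2 fold changes, 7 values under an alternative turned in sign. Without 1 library, exonAS.XLOC_018476 ranged from -0.021 to 0.82 and exonAS.XLOC_000746 from -0.15 to 2.32 for brown against green, and exonAS.XLOC_021188 from -8.21 to 0.17, exonAS.XLOC_029688 from -3.43 to 2.03 and exonAS.XLOC_031624 from -1.75 to 1.13 for the kinds at yellow. With library size alone, exonAS.XLOC_027174 was 0.90 and exonAS.XLOC_031624 1.38. Depth limits rows under 1 CPM in poly(A)-depleted green fruit: exonAS.XLOC_025857 rests on 2, 5 and 4 counts there.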

Other observations

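For 15 of the 108 lncRNAs no gene row in the window of 60 gene numbers reached a 4-fold ratio of brown to green; these rows were picked after their values were seen. Their brown medians were 33.8 to 433 CPM in rRNA-depleted RNA and their ratios 4.02 to 34.6. Their best nearby correlation had a median of 0.667 and a range of 0.191 to 0.993. The highest gene row ratio in the window ran from 1.34 to 3.88, so some faced a gene row just under the 4-fold limit. exonAS.XLOC_014025 was itself a part copy of FvH4_4g07870, the gene row with the ratio of 3.88. In poly(A)-depleted RNA all 15 had a log2 fold change above 0 at brown, with a median of 1.92, and none was called by edgeR's quasi-likelihood test; all 15 were called without brown replicate 3, and none without brown replicate 1 or 2. In 3 of them, exonAS.XLOC_004653, exonAS.XLOC_023999 and exonAS.XLOC_024720, no gene row in the window reached 2-fold.

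exonAS.XLOC_004653 had 55.4, 49.1 and 68.0 CPM in rRNA-depleted green, 68.4, 408 and 129.8 CPM in yellow and 379, 412 and 142 CPM in brown libraries. In poly(A)-depleted RNA it had 50.3, 49.8 and 70.2 CPM at green and 417, 299 and 36.3 CPM at brown. The highest ratio among the gene rows of its window was 1.90. exonAS.XLOC_023999 had 40.5, 37.7 and 37.2 CPM in rRNA-depleted green and 309.98, 183 and 133 CPM in brown libraries, with a highest gene row ratio of 1.55. Gene rows were placed by interpolation, so a gene further along the numbering that faces the locus could be missed. For exonAS.XLOC_024720 the gene row FvH4_6g26170, 78.1 gene numbers away and so outside the window, correlated at r = 0.986. That gene row had 1196, 1543 and 1671 counts in rRNA-depleted green and 11607, 12849 and 3178 in brown libraries, and exonAS.XLOC_024720 had 1 to 1.66 times its counts, with a median of 1.05.

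For 4 of the 108, the assembly holds an intergenic locus on the opposite strand that overlaps the lncRNA. LINC.XLOC_015916, LINC.XLOC_026752 and LINC.XLOC_026826 were listed with 0 counts in all 18 libraries, while the lncRNAs they overlap by 1598, 1167 and 794 bases had 109461, 86543 and 24529 counts. LINC.XLOC_015309 had 352 counts and the overlapping exonAS.XLOC_017927 had 14885.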
